A study of Mus musculus with 4 samples.

Results

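The mitoferrins and the mitochondrial iron-sulfur cluster assembly factors were followed in mouse fibroblasts with and without overexpressed melanotransferrin (MTf), a membrane-anchored relative of transferrin that binds iron. The 8 genes were Slc25a37 and Slc25a28, the mitoferrins, and Nfs1, Iscu, Hscb, Glrx5, Isca1 and Isca2, the assembly factors. They were chosen by name and with earlier results of these data known. The platform annotation pairs 18193 genes with probe sets of their own. Every probe set assigned to 1 of the 8 alone was taken, 11 in all. Nfs1 had 3 probe sets, Isca1 had 2 and each of the other 6 genes had 1.

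All lines were LMTK- cells, mouse fibroblasts derived from L cells and without thymidine kinase, and all were stably transfected with the expression vector pCI-neo. Vector 1 and vector 2 carried the vector alone. MTf 4 and MTf 6 were clones that carried it with a mouse MTf cDNA, so each is a single clone, and for the vector lines the labels leave this unsaid. Total RNA of each line was hybridised to 1 Affymetrix mouse genome array, which gave 2 arrays per group, and nothing says whether the lines were cultured separately, so p-values reflect only the spread among these arrays, in part perhaps technical. Values are array signals, which the submitters scaled to 1 common level, and differences are given on the scale log2(signal + 32), as MTf minus vector. A probe set was tested with limma if its mean over the 4 arrays was at or above the median of all probe sets, a signal of about 196, and it was called at an adjusted p under 0.05 over all probe sets tested.

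Iron enters the mitochondrial matrix through the mitoferrins, which are carriers of the inner membrane. There the cysteine desulfurase Nfs1 supplies sulfur, a cluster is built on the scaffold Iscu, and the co-chaperone Hscb helps an Hsp70 chaperone to pass it to the glutaredoxin Glrx5. Isca1 and Isca2 act later, in making the larger clusters that aconitase, lipoate synthase and respiratory complex I need.

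Meltf, the gene of MTf, was higher in both clones. It gave signals of 265 and 274 in vector lines 1 and 2, and 1519 and 1885 in clones MTf 4 and MTf 6, a difference of 2.52 on the log2 scale (limma, SE 0.24, adjusted p = 0.0903), so that over the whole table it missed the threshold of 0.05. With 1 array left out in turn the difference lay between 2.36 and 2.67. Fibroblast markers were bright for Vim, S100a4, Fn1, Col1a2, Col3a1, Col1a1 and Pdgfrb, 7 of 10 on the list, whereas Thy1, Dcn and Lum were below the filter in these lines. Among the other markers, 4 of 6 of macrophages, 3 of 5 of erythroid cells, 2 of 3 of muscle and 1 each of epithelial, endothelial and adipocyte genes were above it. Erythroid markers bear on Slc25a37, the mitoferrin of red cell precursors. Alas2 stayed between 7.80 and 34.6 and Hba-a1 between 80.5 and 124. Klf1 was at 270 and 286 in the vector lines against 155 and 167 in the clones. Gata1 was at 189 and 190 against 277 and 291. The clone values of Klf1 and the vector values of Gata1 lay below the filter signal of about 196. Epor, the brightest of the 3 erythroid markers above the filter, had a log2 difference of -0.12 without overlap of the groups. None of the 3 passed the test. Of the 4 epithelial markers only Krt8 passed the filter, at 572 and 505 against 419 and 520 (log2 difference -0.19). Krt18 stayed between 37.6 and 101 and Cdh1 between 6.80 and 102, with overlapping groups, while Epcam was at 131 and 40.1 against 326 and 405. Fabp4 was bright in all lines, between 8333 and 12040. The part of these genes in the members' values was not tested.

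No member passed the test of a difference between MTf clones and vector lines. Of the 11 probe sets, 10 passed the filter on low signals, with at least 1 for each gene, and 0 of these 10 passed the test (limma, adjusted p = 1.00 for each), where 0.00444% of all 22519 probe sets tested were called. At an unadjusted threshold of 0.05 the count was again 0, against 1.9% of all probe sets. The log2 differences lay between -0.30 and 0.24, with 7 below 0 and 3 above. Their median was -0.07, against -0.01 over all tested probe sets, and the share of all probe sets below 0 was 51.3%. The 95% intervals of all 10 lay between 0.594-fold and 1.77-fold, each taken for its probe set alone. In RNA of a whole culture, fewer cells with a transcript and less of it per cell cannot be told apart.

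**Figure D1:**
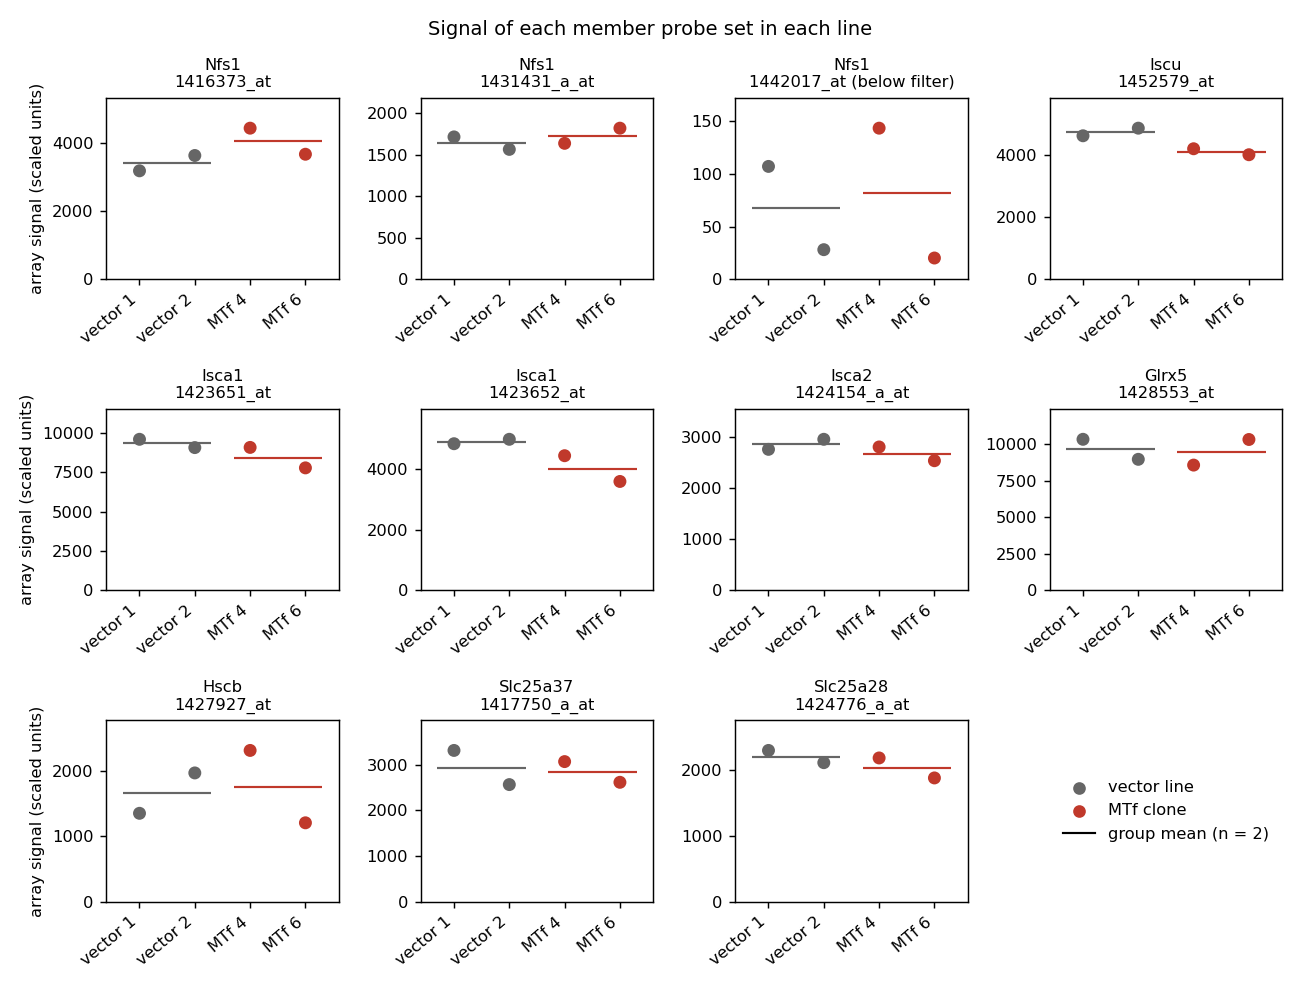
Each panel plots 1 probe set, with the array signal on a linear axis from 0 and the 4 lines along the x axis. Points are single arrays (grey for vector lines, red for MTf clones) and bars are group means (n = 2). For Iscu and for 1 probe set each of Nfs1 and Isca1 the red and grey points do not overlap in height.

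For neither mitoferrin did the clones part from the vector lines. Slc25a37 (probe set 1417750_a_at) gave 3318 and 2569 in vector lines 1 and 2, and 3073 and 2619 in clones MTf 4 and MTf 6. Both groups held a higher and a lower line, and they overlapped. The means were 2943 ± 530 (SD, n = 2) in the vector lines and 2846 ± 321 (SD, n = 2) in the clones, a log2 difference of -0.04 (95% interval -0.54 to 0.46). The sign turned to 0.14 without vector 1 and to 0.07 without MTf 6. A further probe set, which the annotation assigns to Slc25a37 together with Gm16867, was not a member. It stood at 87.5, 21.9, 61.3 and 33.3 in the order vector 1, vector 2, MTf 4 and MTf 6, below the filter.

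Slc25a28 (1424776_a_at), the mitoferrin of wider tissue range, gave 2294 and 2109 in vector lines 1 and 2, and 2180 and 1877 in clones MTf 4 and MTf 6. MTf 6 was the lowest line and MTf 4 lay between the vector lines. The log2 difference was -0.12 (95% interval -0.59 to 0.35). For both mitoferrins vector 1 was highest and MTf 4 next, while the lowest line was vector 2 for Slc25a37 and MTf 6 for Slc25a28. Among the other mitochondrial carriers of the same SLC25 family, 0 of 27 tested genes were called, with 14 higher, 13 lower and a median of 0.01.

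Nfs1, the desulfurase, was the only member with a difference above 0.1 towards the clones. Its brightest probe set (1416373_at) gave 3184 and 3633 in vector lines 1 and 2, and 4434 and 3669 in clones MTf 4 and MTf 6. The groups did not overlap, but MTf 6 was only just above vector 2. The means were 3408 ± 318 (SD, n = 2) and 4052 ± 541 (SD, n = 2), a log2 difference of 0.24 (95% interval -0.22 to 0.71, limma, unadjusted p = 0.257). With 1 line left out in turn it lay between 0.11 (without MTf 4) and 0.38 (without MTf 6).

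The second probe set of Nfs1 did not share this order. For 1431431_a_at the signals were 1713 and 1563 in vector lines 1 and 2, and 1636 and 1818 in clones MTf 4 and MTf 6. Here MTf 6 was highest, MTf 4 lay between the vector lines, and the log2 difference was 0.07 (95% interval -0.40 to 0.55). The third, 1442017_at, was below the filter at 107, 28.1, 143 and 20.2 in the order vector 1, vector 2, MTf 4 and MTf 6. Values this low were not compared between lines.

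Iscu, the scaffold, was the member with the tightest groups. Its probe set (1452579_at) gave 4637 and 4882 in vector lines 1 and 2, and 4218 and 4025 in clones MTf 4 and MTf 6. Both clones were below both vector lines. The means were 4760 ± 174 (SD, n = 2) and 4121 ± 136 (SD, n = 2), a log2 difference of -0.21 (95% interval -0.62 to 0.21, limma, unadjusted p = 0.283). With 1 line left out in turn it stayed between -0.24 and -0.17. Without variance moderation, which uses the narrow spread of this probe set alone, the unadjusted p of the linear fit was 0.0539. In the same fit it lay between 0.19 and 0.95 for the other tested member probe sets, and 0 probe sets were called in the whole table. Iscu was picked out by that narrow spread, so this p is not separate support.

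Hscb, the co-chaperone, varied most among the tested members, and it did so within the groups. Its probe set (1427927_at) gave 1353 and 1971 in vector lines 1 and 2, and 2316 and 1207 in clones MTf 4 and MTf 6. MTf 4 was the highest and MTf 6 the lowest of all lines, a 1.92-fold span, with the vector lines between them. The log2 difference between the groups was 0.03 (95% interval -0.75 to 0.82), while MTf 6 minus MTf 4 was -0.92 and vector 2 minus vector 1 was 0.53. The group difference was -0.43 without MTf 4 and 0.50 without MTf 6, and -0.23 without vector 1. Its range over the lines, 0.92 on the log2 scale, was wider than that of 85% of all tested probe sets. Among those at least as bright as the dimmest tested member the share was 94%. Hscb was picked as the widest of the 10 tested, so a high share comes with the choice. Each line was hybridised once, so this within-group difference has no replicate check. The tested genes nearest to Hscb in pattern, by root mean square distance of log2 deviations over the 4 lines, were S100a1 (0.019), Zfp668 (0.021) and Vwa5a (0.021), and in all 207 tested probe sets lay within 0.1 of it.

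Glrx5, the glutaredoxin that carries clusters onward, paired 1 vector line with 1 clone. Its probe set (1428553_at) gave 10334 and 8965 in vector lines 1 and 2, and 8572 and 10322 in clones MTf 4 and MTf 6. Vector 1 and MTf 6 were nearly equal and high, and vector 2 and MTf 4 were lower. The means were 9650 ± 968 (SD, n = 2) and 9447 ± 1237 (SD, n = 2), a log2 difference of -0.03 (95% interval -0.47 to 0.40). It was 0.07 without vector 1 and 0.10 without MTf 4, so its sign is not settled.

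Isca1 and Isca2, the late-acting factors, were lowest in MTf 6 by all 3 of their probe sets. Isca1 by 1423652_at gave 4853 and 4998 in vector lines 1 and 2, and 4456 and 3605 in clones MTf 4 and MTf 6. Both clones were below both vector lines, MTf 6 by more. The means were 4925 ± 103 (SD, n = 2) and 4030 ± 602 (SD, n = 2), a log2 difference of -0.30 (95% interval -0.75 to 0.16, limma, unadjusted p = 0.168, the smallest of the members). Without MTf 6 the difference was -0.14 and without MTf 4 it was -0.45.

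The other probe set of Isca1, 1423651_at, differed in the same direction by less. Its signals were 9573 and 9048 in vector lines 1 and 2, and 9060 and 7764 in clones MTf 4 and MTf 6. MTf 4 matched vector 2, and MTf 6 stood alone at the low end. The log2 difference was -0.15 (95% interval -0.56 to 0.26), and it was -0.04 without MTf 6. Isca2 (1424154_a_at) gave 2755 and 2951 in vector lines 1 and 2, and 2802 and 2533 in clones MTf 4 and MTf 6. MTf 4 again lay between the vector lines, and the log2 difference was -0.10 (95% interval -0.54 to 0.35).

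**Figure D2:**
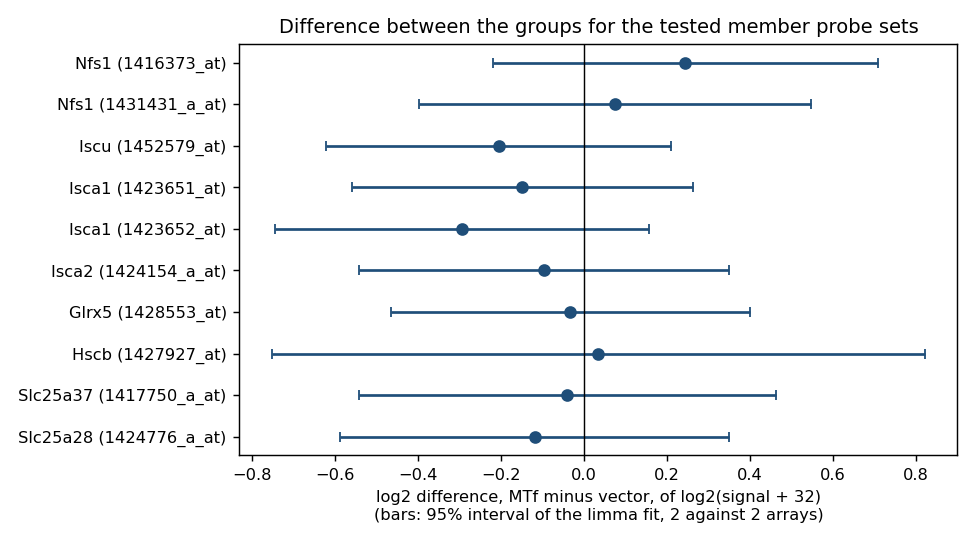
Points are log2 differences, MTf minus vector, of log2(signal + 32) for the 10 tested member probe sets, and bars are 95% intervals of the limma fit (2 arrays per group). Every bar crosses 0, and that of Hscb is the widest, from -0.75 to 0.82.

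Counted over lines, 6 of the 10 tested member probe sets had their lowest signal in MTf 6, against 29.3% of all tested probe sets and 25.7% of those at least as bright as the dimmest tested member. By gene, with the brightest probe set of each, these were Iscu, Isca1, Isca2, Hscb and Slc25a28, 5 of 8, against 29.2% of all tested genes. This count was made after the values were seen. The median deviation of the 10 from the mean of the 4 lines was -0.14 in MTf 6, 0.09 in vector 1, 0.02 in vector 2 and 0.03 in MTf 4. Over all tested probe sets the same medians lay between -0.02 and 0.03. On the Actb controls the ratio of the 3' to the 5' probe set was highest in MTf 6, 1.31 against 1.21 to 1.23 in the other lines. On the Gapdh controls it was lowest there, 0.669 against 0.681 to 0.691. Their part in the low values of MTf 6 was not tested.

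**Figure D3:**
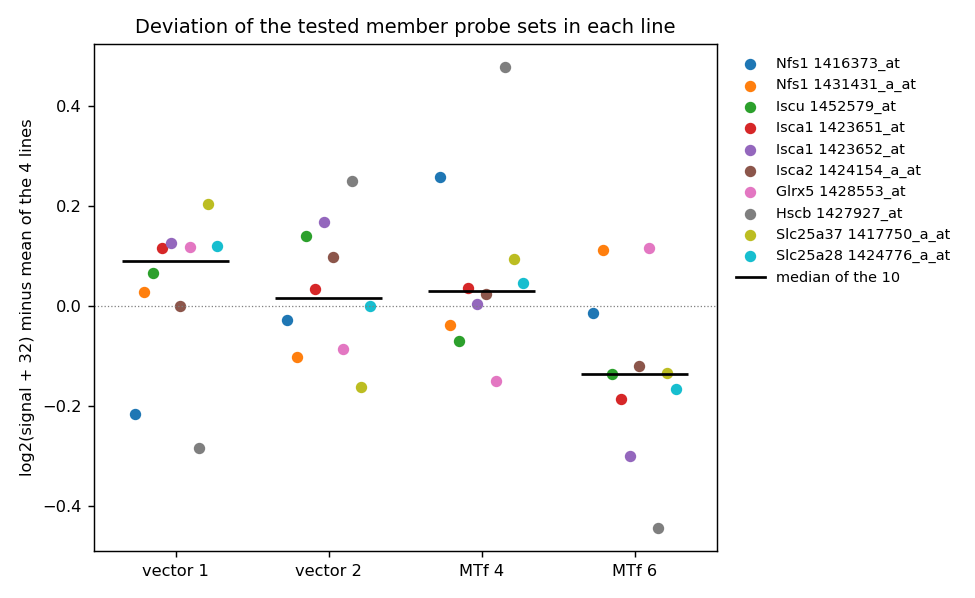
The y axis gives log2(signal + 32) minus the mean of the 4 lines, for the 10 tested member probe sets (coloured points) in each line, and black bars are their medians. The median is lowest in MTf 6, at -0.14, and the Hscb points span the widest range, from -0.44 in MTf 6 to 0.48 in MTf 4.

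Groups that did not overlap were seen for 3 of the 10 tested member probe sets, against 25.8% of all tested probe sets, so this count is near the background. They were 1416373_at of Nfs1, higher in the clones, and those of Iscu (1452579_at) and Isca1 (1423652_at), lower in the clones, where 12.2% of all probe sets did not overlap with the clones higher and 13.6% with the clones lower. Differences within groups were of the same order as those between them. The former are between single arrays and the latter between means of 2 arrays, which vary less, so they are not like measures. The median size of MTf 6 minus MTf 4 over the 10 was 0.22 and that of vector 2 minus vector 1 was 0.13, while the median size of the group difference was 0.11. Over all tested probe sets these were 0.29, 0.24 and 0.15.

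The members lie on 6 chromosomes, with Iscu and Hscb on chromosome 5 and Isca2 and Glrx5 on chromosome 12. For the 20 nearest tested genes around each member, in the gene order of GRCm38.p6, the median deviation in MTf 6 lay between -0.07 and 0.09. The members themselves lay between -0.44 and 0.12, and a median over 20 genes varies less than 1 gene does. Isca1 on chromosome 13 was at -0.19 in MTf 6 by its brightest probe set, and its neighbours were at -0.03. Chromosome medians in MTf 6 were between -0.04 and -0.02 for these 6 chromosomes.

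The promoters of 5 members were in the RefSeq promoter table of GRCm38.p6, those of Nfs1, Isca1, Isca2, Glrx5 and Slc25a28. They share sequence features of CpG-rich starts. Over the 250 bases before the start, their G and C content lay between 55.6% and 70.8%, against a median of 52.4% over all 32851 promoters. For Nfs1, Isca2 and Slc25a28 the annotated gene itself reaches into this window, so it is not wholly outside the gene. A CCAAT box (CCAAT, either strand) was in 4 of the 5, against 33.8% of all promoters and 29.4% of the 5171 that were as rich in G, C and CpG. The core bound by ETS factors (CCGGAAG, either strand) was in 3 of the 5, against 6.91% and 16.7%. The NRF1 core (TGCGCA, the same on both strands) was in 1 of the 5, against 6.43% and 16.9%. These matches are descriptions and not shown sites. The 2 stretches below, the last 170 bases before each start, are given because Isca1 and Glrx5 had opposite signs in MTf 6 and because no other annotated gene reaches into them. Capitals mark the CCAAT boxes and the NRF1 core.
Isca1, chr13:59769790-59769959, minus strand: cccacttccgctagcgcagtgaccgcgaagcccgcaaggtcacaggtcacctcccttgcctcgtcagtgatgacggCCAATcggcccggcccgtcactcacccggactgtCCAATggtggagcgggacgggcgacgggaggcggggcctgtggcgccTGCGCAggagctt
Glrx5, chr12:105032448-105032617, plus strand: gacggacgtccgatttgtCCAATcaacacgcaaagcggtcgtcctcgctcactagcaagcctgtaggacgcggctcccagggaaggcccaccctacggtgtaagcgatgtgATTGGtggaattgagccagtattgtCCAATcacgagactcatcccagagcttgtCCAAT
Glrx5 holds 4 CCAAT boxes in this stretch and no match to the other motifs, whereas Isca1 holds 2 CCAAT boxes and the NRF1 core. Head-to-head or overlapping neighbours reach into the promoters of Nfs1 (Romo1), Isca2 (Npc2) and Isca1 (Etohd2).

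Other genes of iron-sulfur cluster biology were described from lists, each gene by its brightest probe set. Of 98 tested genes in 7 lists 0 were called over all probe sets (limma), against 0 of 10682 tested genes, and 1 was past an unadjusted 0.05, against 1.72% of all tested genes. The median log2 difference over all tested genes was -0.01.

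Among the other mitochondrial assembly genes 7 of 11 tested were higher and 4 lower, with the median at 0.06. Lyrm4, the small partner protein that Nfs1 needs, gave 1268 and 1382 in vector lines 1 and 2, and 1692 and 1178 in clones MTf 4 and MTf 6, so the clones lay on either side of the vector lines. Ndufab1, the acyl carrier protein of the same complex, was likewise highest in MTf 4 and lowest in MTf 6, at 14019 and 11437. Hspa9, the Hsp70 chaperone that works with Hscb, was at 25045 in MTf 6 and 18647 in MTf 4, with 22106 and 19156 in the vector lines, so MTf 6 was highest for Hspa9 and lowest for Hscb. The 3 were picked as the direct partners of members and not by the naming rule. By that rule Nubpl, an assembly factor of complex I, had a log2 difference of 0.20, Iba57, which acts with Isca1 and Isca2, of 0.19, Sdhaf1 of -0.12 and Bola3 of -0.13. Bola3 was at 7543 in vector 1 and between 5417 and 6044 in the other lines, and its difference was 0.11 without vector 1.

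In the cytosolic assembly pathway 5 of 10 tested genes were higher and 5 lower, with the median at 0.00. Ciao2a gave 8742 and 9476 in vector lines 1 and 2, and 7325 and 7272 in clones MTf 4 and MTf 6, both clones below both vector lines (log2 difference -0.32). Ciapin1, an electron carrier of the pathway, was at 5392 in vector 1 and between 2594 and 3287 in the other lines, so its difference of -0.51 came with 1 high vector line. Mms19, which targets clusters to DNA repair enzymes, differed by 0.21, and Bola2 by 0.17.

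Proteins that hold clusters were described by compartment. In mitochondria 4 of 12 tested genes were higher and 8 lower, with the median at -0.02, and 8 of the 12 were lowest in MTf 6, against 29.2% of all tested genes. These 8 were Ndufs1, Ndufs7, Ndufs8, Ndufv1 and Ndufv2 of complex I, Uqcrfs1, the Rieske protein of complex III, Etfdh and Fech. Uqcrfs1 gave 15514 and 16113 in vector lines 1 and 2, and 15647 and 12285 in clones MTf 4 and MTf 6 (log2 difference -0.19). Ndufs7, the furthest of the 8 below its own mean in MTf 6, was at 9930 in MTf 6 and 14968 in MTf 4. It was named for that low value and not by the naming rule. Its vector lines were at 12868 and 11918. Its log2 deviation in MTf 6 from the mean of the 4 lines was -0.31. For the others of the 8 this lay between -0.27 (Uqcrfs1) and -0.05 (Ndufs8). Sdhb, of complex II, went the other way, with 21123 and 21098 in the clones against 17701 and 18838 (log2 difference 0.21), and Cdk5rap1 differed by -0.21. Cisd1 was at 11076 in vector 2 and between 14788 and 15955 in the other lines, so that its difference of 0.18 was -0.08 without vector 2. Of the general mitochondrial genes, 7 of 18 were lowest in MTf 6, with a median group difference of -0.01, and of the other SLC25 carriers 5 of 27. The same count was 3 of 11 for the other mitochondrial assembly genes and 3 of 10 for cytosolic assembly. It was 2 of 9 for cytosolic and 1 of 11 for nuclear cluster proteins. Like that of the members, these counts were made after the values were seen.

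Among cytosolic cluster proteins 3 of 9 tested genes were higher and 6 lower, with the median at -0.15. Cdkal1 differed by 0.22 and Dph2 by -0.21, both without overlap of the groups. Abce1, a ribosome recycling factor, differed by -0.22 with overlapping groups, and by -0.02 without vector 1 and -0.01 without MTf 4. Xdh gave 1220 and 2105 in vector lines 1 and 2, and 2017 and 721 in clones MTf 4 and MTf 6. Its low value in MTf 6 alone set the sign of its difference, -0.40 over all lines and 0.32 without MTf 6. Aco1, the cytosolic aconitase that becomes an iron-regulatory protein when its cluster is missing, gave 10827 and 9634 in vector lines 1 and 2, and 7406 and 11503 in clones MTf 4 and MTf 6. It was named for that role and not by the rule, and the clones lay on either side of the vector lines. Among nuclear cluster proteins 4 of 11 were higher and 7 lower, with the median at -0.08. Ercc2, a DNA repair helicase, was the gene past an unadjusted 0.05, at 482 and 494 in the vector lines and 92.0 and 244 in the clones (log2 difference -1.49, limma, adjusted p = 1.00), and it was known from earlier results of these data. Rev3l differed by 0.33 and Pold1 by -0.34, which was -0.08 without vector 1. Nthl1, at 796 in MTf 4 and between 542 and 555 in the other lines, differed by 0.25, and by -0.01 without MTf 4. The groups did not overlap for Ercc2, Rev3l and Pold1, and they overlapped for Nthl1.

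Named among the mitochondrial carriers and the general mitochondrial genes were those with the smallest unadjusted p. Slc25a25 and Slc25a30 had log2 differences of -0.45 and 0.35, Slc25a29 of -0.32 and Slc25a22 of -0.27. For these 4 carriers the groups did not overlap. Of the 27 tested carriers, 5 did not overlap with the clones higher and 5 with the clones lower, against 25.8% of all tested probe sets. Of the 28 genes named by the rule in the 7 lists, 17 did not overlap, which comes in part with the choice by smallest p. Tomm70a, an import receptor, differed by -0.20, again without overlap, and Vdac3 by -0.19 with overlapping groups. Tomm40 gave 3517 and 2583 in vector lines 1 and 2, and 2222 and 3100 in clones MTf 4 and MTf 6, a difference of -0.20 that was 0.02 without vector 1 and 0.04 without MTf 4. Tfam, which packs mitochondrial DNA, was at 2223 in vector 2 and between 2918 and 3391 in the other lines, and its difference of 0.23 was -0.03 without vector 2.

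**Figure D4:**
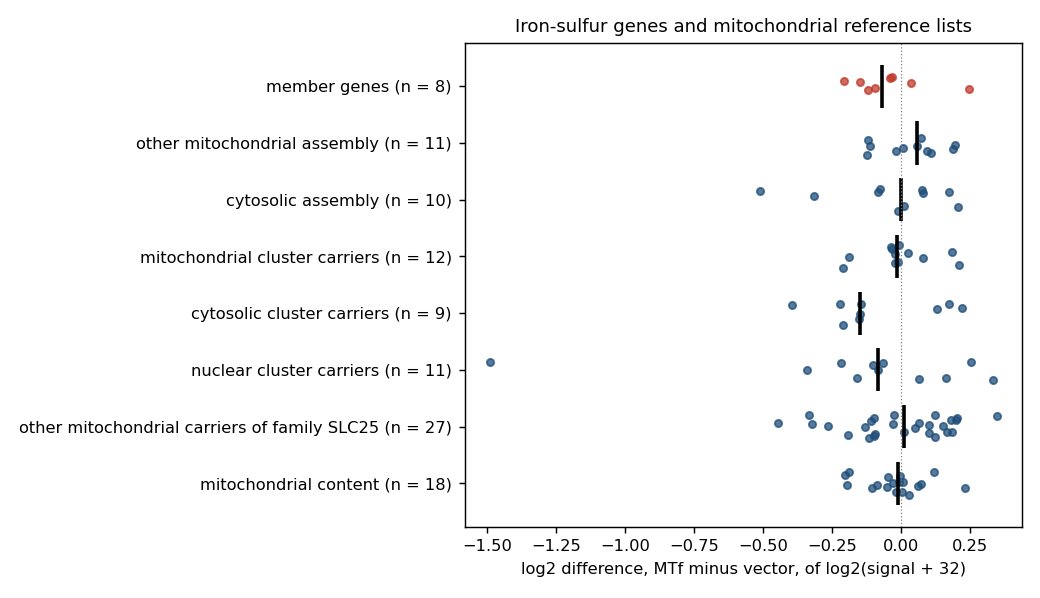
Each point is the log2 difference, MTf minus vector, of log2(signal + 32) for 1 gene, by its brightest probe set, in the members (red) and the 7 lists (blue), and black bars are medians. Medians lie between -0.15 and 0.06. Ercc2, at -1.49 and with its clone mean below the filter signal, stands apart among the nuclear cluster proteins.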

How the data were processed

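Total RNA of 4 lines was measured on 1 array each, and groups were taken from the labels. The authors deposited 1 scaled intensity per probe set and array, on a linear scale, from GCOS 1.3 per the submitters' processing notes. Its settings are unstated in the sources used here. Detection calls did not enter. The 2%-trimmed mean was 1000.01 on every array, and no further scaling was applied.

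Of 45101 probe sets 45037 were not controls. Signals were converted to log2(signal + 32), which shrinks differences at low signals. A filter kept the brighter probe sets, those with a mean log2 value at or above the median (a signal of about 196). The 22519 that remained entered limma 3.58.1 in R 4.3.3 (lmFit, eBayes with a trend, Benjamini-Hochberg adjustment over all of them, threshold 0.05). Means are of signals. The smallest exact permutation p with 2 against 2 is 0.333, and the number of arrays limits the precision. The fit was tested on simulated data.

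Members and lists were chosen with earlier results of these data known. Named were all members, Meltf, up to 4 tested genes per list with the smallest unadjusted p, and the 3 genes nearest in pattern to the tested member of widest range. Of 111 list genes 102 had a probe set here, and the others were not analysed here. Alternatives covered the offset, filter, normalization, variance model and each array.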

Additional observations from a re-analysis of the deposited data

How the results depend on the processing

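No member probe set and no list gene was called under any of the 14 alternatives, nor was a list gene when genes were the mean of their probe sets, but a fit that calls nothing in the whole table says nothing about the members. The count of calls over all probe sets, 1 as reported, was 0 without the filter, 0 without the trend and 0 without variance moderation, and between 2 and 21 with 1 array left out. Fits without an array hold 1 array in a group, which is assumed to vary like the others. The median log2 difference of the members was between -0.20 and -0.019 with 1 array left out, lowest without MTf 4, and between -0.07 and -0.04 under the other settings. That of Meltf was between 2.36 and 2.67 with 1 array left out. Of 140 single values of members 133 kept their sign and 7, from 4 probe sets, reversed, each with 1 array left out. The values with 1 array left out lay between -0.00040 and 0.15 for 1431431_a_at of Nfs1, -0.17 and 0.10 for Glrx5, -0.43 and 0.50 for Hscb, and -0.22 and 0.14 for Slc25a37. The same alternatives were applied to the single named list genes after the data were seen. Of the 28 named by rule 6 reversed with 1 array left out, where they lay between -0.36 and 0.11 for Bola3, -0.079 and 0.45 for Cisd1, -1.12 and 0.32 for Xdh, -0.0066 and 0.51 for Nthl1, -0.43 and 0.040 for Tomm40, and -0.031 and 0.49 for Tfam. The 5 named outside the rule, as partners, for a role or, for Ndufs7, for its low value in MTf 6, reversed too. They lay between -0.16 and 0.35 for Lyrm4, -0.088 and 0.20 for Ndufab1, and -0.14 and 0.28 for Hspa9. For Ndufs7 the limits were -0.32 and 0.27, and for Aco1 -0.46 and 0.17. Median centring turned Ndufs7 from -0.02 to 0.0039. No paired analysis was possible because the groups share no replicate number.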
